A study of Mus musculus with 8 samples.

Results

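The stretch of mouse chromosome 11 that begins past Sox9, on the side of Slc39a11, was examined in capture Hi-C maps of limb buds. Its members were the bin pairs (bins of 10 kb, separated by 20 kb or more) whose bins both lie in chr11:113040001-114880000 (mm9), which gave 16653 bin pairs over 184 bins, out of 171405 such pairs over the 587 bins of the whole map (chr11:109010001-114880000). The stretch lies outside the edited interval around Sox9 and Kcnj2 and is called the right flank here. It was followed in 8 libraries of E12.5 fore- and hindlimb buds, 1 library for each homozygous mutant made in G4 embryonic stem cells. By their names, ∆BorC1, ∆BorC1-2, ∆BorC1-4 and ∆CTCF are deletions, BorKnockIn is an insertion, InvC and InvIntra are inversions, and InvC∆Bor is an inversion with a deletion, and the sources used here do not give the exact sequence changed in each. The buds of 3 to 8 embryos were pooled for each condition. Wildtype limb buds and a further mutant of the series were not analysed here, so the 8 libraries are compared with each other and not with an unedited genome. With 1 library per genotype, the differences between libraries join genotype, embryo pool and technical spread, which cannot be told apart.

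Chromosomes are folded into domains, stretches in which contacts are more frequent inside than across the borders. Cohesin extrudes loops of DNA and is halted by the zinc finger protein CTCF, most efficiently where CTCF sites point into the loop, and pairs of such sites appear in contact maps as isolated points of high contact at the corners of domains. In capture Hi-C, fragments from 1 chosen region are enriched before sequencing, and each read pair counts as a contact between 2 bins. The series used it at the locus of Sox9, a transcription factor gene required to make cartilage, to study deletions, insertions and inversions. The right flank gives the layout of domains that were not the target of the edits.

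In the RefSeq order of protein-coding genes (assembly GRCm38), Sox9 is followed by Slc39a11, Sstr2, Cog1, Fam104a, D11Wsu47e, Cpsf4l, Cdc42ep4, Sdk2, Rpl38, Ttyh2, Dnaic2, Kif19a, Btbd17, Gpr142 and Gprc5c. Slc39a11 encodes a zinc transporter, Sstr2 a somatostatin receptor, Cog1 a subunit of a Golgi tethering complex, Cdc42ep4 an effector of the GTPase Cdc42, Sdk2 a cell adhesion molecule of synapses and Rpl38 a protein of the large ribosomal subunit. Ttyh2 belongs to a family of membrane proteins described as anion channels, Dnaic2 encodes a dynein intermediate chain of motile cilia and Kif19a a kinesin. The order comes from another assembly than the maps, so no gene was placed on a bin, and positions are given as mm9 coordinates without a gene. No mm9 sequence was used here, so CTCF sites at these positions were not examined.

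The right flank held 436890 contacts at least 20 kb apart in InvC∆Bor, the shallowest library, and 1306533 in ∆BorC1-4, the deepest, out of 3056502 and 9045698 raw contacts in all. Its share of a library's raw contacts was lowest in BorKnockIn, 12.69% (exact 95% interval 12.66 to 12.71), and highest in InvC, 15.41% (15.38 to 15.44). These intervals cover counting error only. The last 8 bins before the end of the map were thinly covered, at 0.0137 to 0.325 of a library's median bin, against 0.213 to 1.74 in the other bins of the flank. From 1 to 2 bins of the flank per library were left out because their coverage was below 0.05 of the median. Coverage along the flank correlated with the median of the other libraries at r = 0.979 to 0.997 in 7 libraries. In BorKnockIn r was 0.410 at the deposited coordinates, 0.892 when read 1 bin (10 kb) to the left and 0.505 at 2 bins to the left, and the best shift on a finer scale was 12 kb (r = 0.916). BorKnockIn was therefore read 1 bin to the left throughout, which leaves it slightly out of register.

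The flank held 6 local minima of contact across a position, that at 114.33 Mb only a small dip, and the same 6 were found in every library. The measure was the insulation score, the log2 of the mean balanced contact (KR, Knight-Ruiz) between the 100 kb on either side of a position, over the library's mean of the same quantity along the flank, so a negative score marks a place that contacts cross less often. Over 165 positions, the median profile of the 8 libraries had local minima at 113.16, 113.51, 113.71, 113.93, 114.33 and 114.53 Mb, with a prominence of at least 0.1. Each position is the left edge of its bin (the bin at 114.53 Mb starts at 114530001). All 6 had a minimum of the library's own profile within 20 kb in 8 of 8 libraries, and in no case was it more than 1 bin away. The minima at 113.16 and 113.93 Mb fell on the same bin in 8 of 8 libraries, those at 113.51, 114.33 and 114.53 Mb in 7 of 8, and that at 113.71 Mb in 5 of 8.

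The deepest minimum lay at 114.53 Mb. Its score was -1.23 in the lowest library (∆BorC1-4), -1.18 in the median and -1.08 in the highest (InvC∆Bor), with a prominence of 1.71 on the median profile. The next, at 113.51 Mb, ran from -1.01 to -0.90 with a median of -0.95, and that at 113.71 Mb from -0.90 to -0.83 with a median of -0.88. The ranges over libraries overlapped between these 2 positions, but within every library the score was lower at 113.51 Mb than at 113.71 Mb. Every library was lower at 114.53 Mb than any library at 113.51 Mb. The minimum at 113.93 Mb was shallower, -0.61 to -0.44 with a median of -0.54. That at 113.16 Mb had a score of -0.52 to -0.39 (median -0.45), lies 20 kb inside the first position that the window could reach, and had a prominence of only 0.17. The shallowest, at 114.33 Mb, ran from -0.11 to -0.06 with a median of -0.07 and a prominence of 0.18, so it is a small dip. The depth of the minima differed without balancing. With raw counts the deepest, at 114.53 Mb, had a score of -1.69, with -1.01 at 113.51 Mb and -0.74 at 113.71 Mb. Among the weaker minima the raw score was -0.20 at 113.93 Mb, -0.28 at 113.16 Mb and -0.18 at 114.33 Mb. Thus 113.16 Mb lay below 113.93 Mb with raw counts. The SD of the score over the 8 libraries was 0.02 to 0.05 at the 6 minima, had a median of 0.03 over all positions and reached 0.07 at 114.46 Mb, where the profile falls towards its lowest point.

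**Figure D1:**
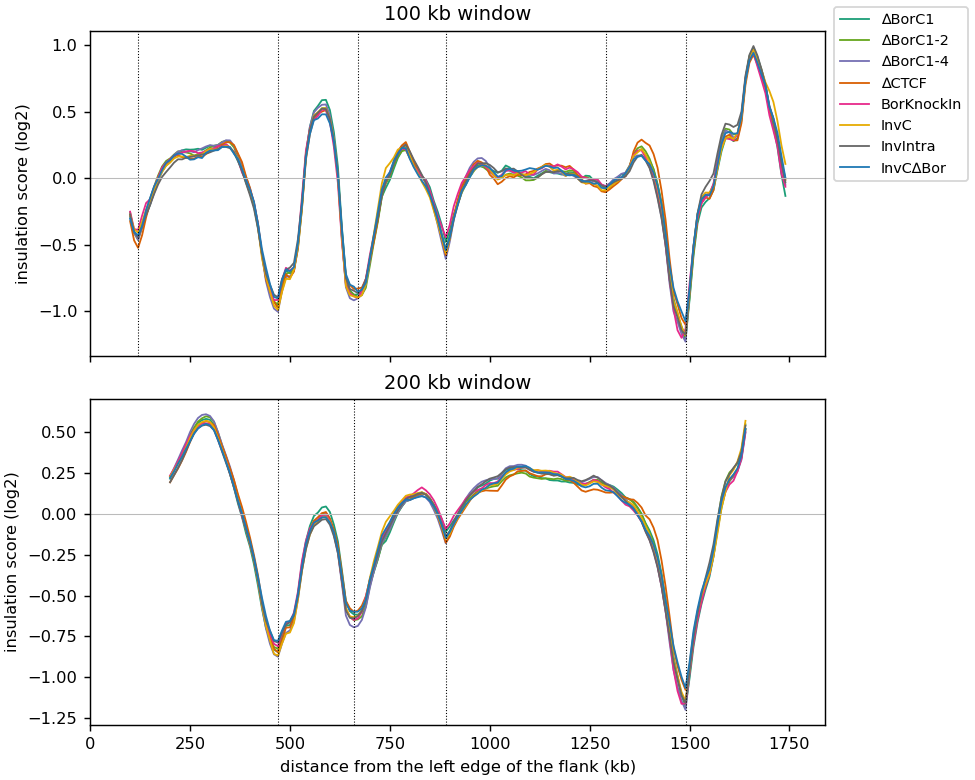
Insulation score (log2) against the distance from the left edge of the flank (kb) for each of the 8 libraries, with a 100 kb window above and a 200 kb window below; dotted lines mark the minima of the median profile. The 8 lines lie on each other, with 6 minima in the upper panel and 4 in the lower, deepest at 114.53 Mb in both.

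With a 200 kb window the layout had 4 minima, at 113.51, 113.70, 113.93 and 114.53 Mb, again in 8 of 8 libraries. Their median scores were -0.84, -0.64, -0.15 and -1.16. All 32 minima of single libraries matched 1 of these 4. The positions at 113.16 and 114.33 Mb were not minima in this window, and the first of them cannot be reached by it, since its profile starts at 113.24 Mb. Single libraries had 6 or 7 minima with the 100 kb window, 51 in all, of which 48 matched the 6 shared positions. The other 3 lay at 114.06 Mb in ∆CTCF (prominence 0.16), BorKnockIn (0.10) and InvC (0.11). The other 5 libraries had a dip at the same place with a prominence of 0.03 to 0.08, below the threshold of 0.1, so the extra minimum separates libraries by the threshold and not by a gap in their values.

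Raw contacts gave the same order of the strong positions without balancing. Of the contacts within 200 kb on either side of a position, the share that crossed it was 14.6% at 114.53 Mb in the median library, from 14.4% (∆BorC1) to 15.4% (InvC∆Bor). At 113.51 Mb the share was 19.6%, from 19.1% (InvC) to 21.3% (InvIntra), at 113.71 Mb it was 22.4% (21.8 to 23.3%) and at 113.93 Mb it was 28.2% (26.9 to 29.4%). At 114.33 Mb it was 33.3% (31.0 to 35.5%), close to the median of 33.7% over all 145 positions measured along the flank, which ranged from 14.6% at 114.53 Mb to 41.5% at 113.33 Mb. The ranges over libraries at 113.51, 113.71, 113.93 and 114.53 Mb did not overlap. Within a position, the libraries differed by more than counting error. At 113.51 Mb the exact 95% interval was 18.8 to 19.3% in InvC and 21.0 to 21.5% in InvIntra. InvIntra had the highest share at 113.51, 113.71, 113.93 and 114.33 Mb (at 113.71 Mb 23.32%, with InvC∆Bor at 23.26% within counting error), and ∆CTCF the lowest at 113.93 Mb (26.9%) and 114.33 Mb (31.0%). The same libraries had the shallowest and the steepest fall of contact with distance among the 8 (slopes of -0.86 and -0.96), whose part in these shares was not tested.

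The 6 minima divide the flank into 7 intervals, named A to G from left to right. A runs from 113.04 to 113.16 Mb and is cut by the edge of the flank, B from there to 113.51 Mb (350 kb), C to 113.71 Mb (200 kb), D to 113.93 Mb (220 kb), E to 114.33 Mb (400 kb), F to 114.53 Mb (200 kb) and G to the end of the map at 114.88 Mb (350 kb). Contact was expressed as observed over expected, the KR value over the library's own mean at the same distance across the whole map, so that 1 is the library's average at that distance. Inside the intervals the median over libraries was 1.27 in A, 1.56 in B, 1.51 in C, 1.33 in D, 1.32 in E, 1.25 in F and 1.56 in G, above 1 in 8 of 8 libraries each time. Since the intervals were drawn from these maps, these levels are a description.

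In B, C and G, contact inside the interval exceeded that with each neighbouring interval in 8 of 8 libraries. This held in 1 of 8 libraries for D and in none for A, E and F. B and C were separated by a contact of 0.77 (0.74 to 0.80), C and D by 0.73 (0.70 to 0.76), and F and G by 0.52 (0.47 to 0.54). D, E and F were joined instead. D contacted E at 1.36 (1.33 to 1.38), E contacted F at 1.53 (1.45 to 1.56), and D contacted F, across the whole of E, at 2.45 (2.37 to 2.57), the highest level of any pair of intervals. Taken as 1 stretch of 820 kb between 113.71 and 114.53 Mb, D to F had a mean contact of 1.55 (1.51 to 1.59), close to the 1.56 of B and of G. A and B likewise contacted each other at 1.37 (1.32 to 1.41), and together had a median of 1.46.

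High contact also joined intervals that were not neighbours. C contacted F, which lies beyond D and E, at 1.86 (1.72 to 1.99), while its contact with E was 0.97 (0.93 to 1.04) and that with D 0.73. A contacted C at 1.52 (1.48 to 1.66) although B, which lies between them, contacted C at 0.77. The lowest levels were those of F with G (0.52), B with D (0.55, from 0.53 to 0.58) and E with G (0.64, from 0.59 to 0.67). Of 10 pairs of intervals lying 3 or more steps apart, 2 were above 1 and 6 below 1 in 8 of 8 libraries.

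**Figure D2:**
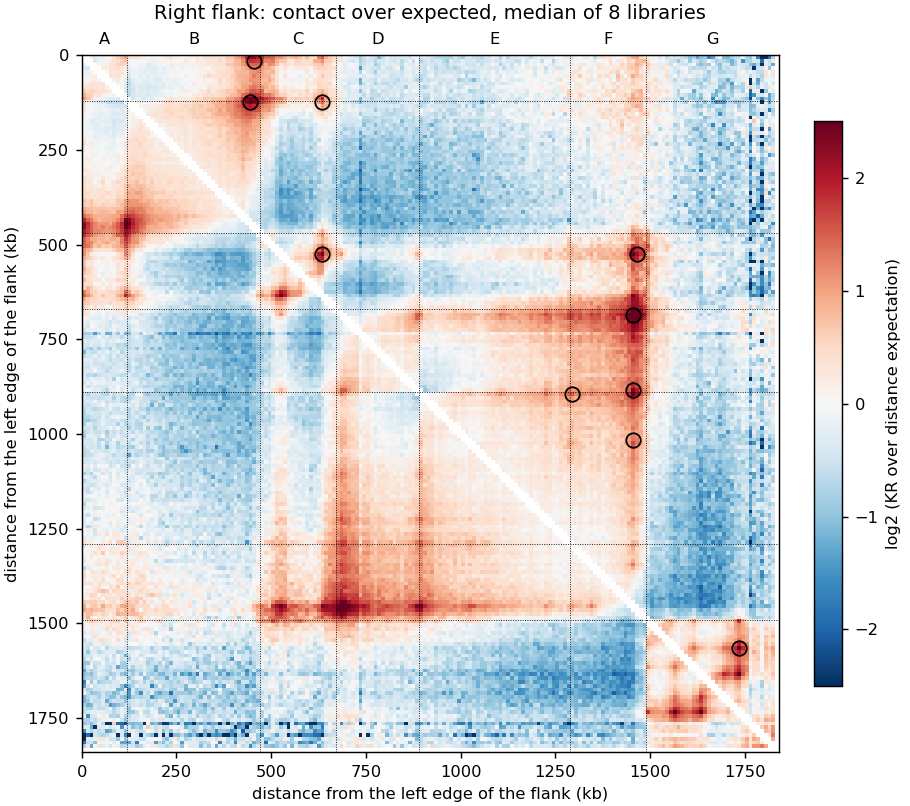
Contact over the distance expectation (log2 scale, red above and blue below expectation) for every pair of 10 kb bins of the flank, median of 8 libraries; both axes give the distance from the left edge in kb, dotted lines mark the 6 minima, letters the 7 intervals and circles the 10 highest local maxima. The squares of B, C, D to F and G stand out, and the highest point lies at the corner of D to F with a value of 6.88.

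To measure the layout on data that had not set it, the minima were found in 7 libraries and the contrast was measured in the one left out. Contact within intervals over that between neighbouring intervals, for pairs 50 to 500 kb apart, rounded to 1.37 for 5 libraries (∆BorC1, ∆BorC1-2, BorKnockIn, InvIntra, InvC∆Bor), 1.38 for ∆BorC1-4 and InvC, and 1.39 for ∆CTCF. The other 7 libraries gave 6 minima every time, on the same bins as all 8 in 4 of 8 cases and within 1 bin in the other 4. All 8 libraries map the same stretch, and the lowest r between their 100 kb insulation profiles was 0.988. The library left out is therefore not an independent check of the layout, and the contrast is a description. The neighbouring pairs include those with low contact (B with C, C with D, F with G) and those with high contact (A with B, D with E, E with F). With the layout of the 200 kb window, which leaves out the weak minima, it was 1.64 (1.61 to 1.68).

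The strongest contacts were isolated points, and the 10 highest local maxima were named. They were maxima of the median over libraries in squares of 3 by 3 bins, at least 100 kb apart and with at least 100 contacts in each library, out of 35 candidates. Being chosen for their height, they are described without a test. The highest linked chr11:113720001-113730000 and chr11:114490001-114500000, 770 kb apart, just inside both borders of the joined stretch D to F. Contact there was 6.95 times the expectation for ∆BorC1, 6.66 for ∆BorC1-2, 7.24 for ∆BorC1-4, 6.16 for ∆CTCF, 6.99 for BorKnockIn, 6.80 for InvC, 6.12 for InvIntra and 7.32 for InvC∆Bor, on 608 to 1806 contacts. ∆CTCF and InvIntra were the lowest, and the other 6 libraries lay within 6.66 to 7.32. This point was 2.31 times (2.12 to 2.56) the level of the bins in a ring around it.

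The next maximum linked chr11:113160001-113170000 and chr11:113480001-113490000, 320 kb apart, at the corner of B. Its values were 5.15 for ∆BorC1, 5.43 for ∆BorC1-2, 5.07 for ∆BorC1-4, 5.23 for ∆CTCF, 4.43 for BorKnockIn, 4.87 for InvC, 4.53 for InvIntra and 4.95 for InvC∆Bor. BorKnockIn and InvIntra were the lowest here. The third in rank linked chr11:113560001-113570000, in C, and chr11:114500001-114510000, in F, 940 kb apart, and so spanned the minimum at 113.71 Mb and all of D and E. It stood at 3.53 for ∆BorC1, 4.28 for ∆BorC1-2, 4.04 for ∆BorC1-4, 3.94 for ∆CTCF, 4.56 for BorKnockIn, 4.07 for InvC, 3.91 for InvIntra and 4.31 for InvC∆Bor, on 261 to 729 contacts. InvIntra was among the lowest 2 libraries at all 3 of these maxima, and no library was among the highest 2 at all 3. At the next in rank, which linked 113.92 and 114.49 Mb, InvIntra was instead the highest library (4.05).

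Of the other 7, 2 lay within a single interval. The pair at 114.60 and 114.77 Mb, 170 kb apart in G, had 3.69 (3.53 to 3.85), and that at 113.56 and 113.67 Mb, 110 kb apart in C, had 3.63 (3.34 to 3.88). The pair at 113.92 and 114.49 Mb (570 kb) had 3.97 (3.61 to 4.05) and that at 113.05 and 113.49 Mb (440 kb), between A and B, had 3.54 (3.10 to 3.94). The last 3 were lower: 2.39 at 114.05 and 114.49 Mb (440 kb), 2.36 at 113.93 and 114.33 Mb (400 kb) and 2.23 at 113.16 and 113.67 Mb (510 kb). The first maximum outside the 10, at 113.73 and 113.92 Mb, had 2.22, so the tenth place marks no gap. With raw counts 9 of the 10 were lower and the order changed: the pair at 113.05 and 113.49 Mb had 3.61 and came after the first 2, while the pair at 113.56 and 114.50 Mb had 2.62, below those at 113.56 and 113.67 Mb (2.97) and at 113.92 and 114.49 Mb (2.78). All 10 exceeded the ring around them in 8 of 8 libraries. When the 10 maxima were taken from 7 libraries, the library left out had a maximum of its own within 20 kb at 9 or 10 of them. This match is lenient, since a library had 38 to 55 maxima of its own. By the stricter count, 7 to 9 of the 10 were among the 10 highest of the library left out.

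**Figure D3:**
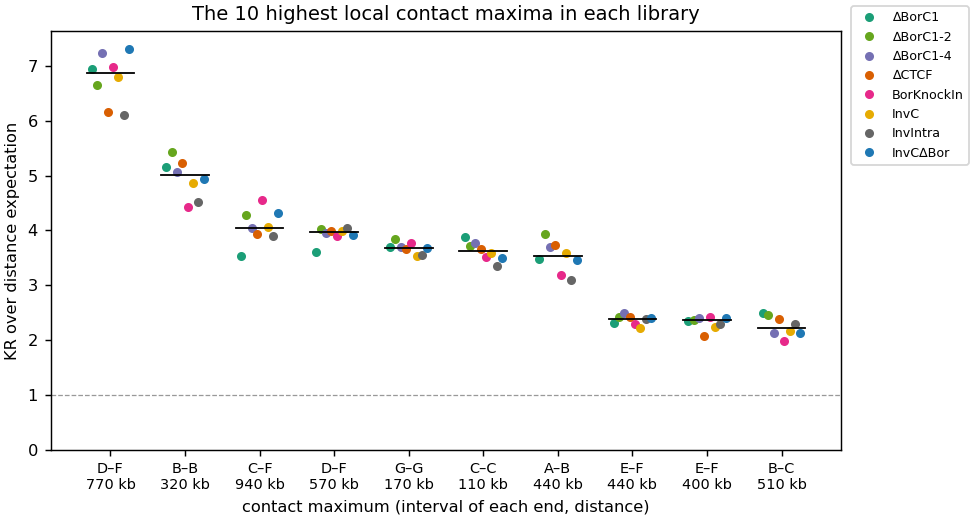
Contact over the distance expectation (linear axis, 1 marked by a dashed line) at each of the 10 highest local maxima, 1 point per library and a bar at the median; labels give the interval of each end and the distance in kb. The libraries spread from 6.12 to 7.32 at the highest maximum and from 1.98 to 2.49 at the tenth.

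Few places took part in these contacts. The bins from 114.49 to 114.51 Mb were an end of 4 of the 10 maxima, with partners at 113.56, 113.72, 113.92 and 114.05 Mb. The places at 113.16, 113.48 to 113.50, 113.56, 113.67 and 113.92 to 113.94 Mb were ends of 2 maxima each. Of the 20 ends, 9 lay within 20 kb of an insulation minimum, while 36 of the 184 bins (19.6%) did. A place shared by several maxima was counted once for each. Minima and maxima were found in the same maps, so these counts are a description. Seen from 114.48 to 114.52 Mb, contact with the intervals to the left was 1.57 in A, 1.24 in B, 2.95 in C, 3.56 in D, 1.93 in E and 1.41 in F, and 0.54 in G, on its right. The range over libraries was 3.43 to 3.82 for D and 0.48 to 0.58 for G, and the order of C, D and E was the same in 8 of 8 libraries.

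Most ends contacted 1 side more than the other. The mean over pairs about 50 to 400 kb away was compared between the right and the left side of each end. At 113.48 to 113.50 Mb it was 2.04 on the left and 0.58 on the right, a log2 ratio of right over left of -1.81 (-1.93 to -1.69). At 113.56 Mb contact was higher on the right, 1.34 against 0.71 (0.93, from 0.81 to 1.00), at 113.67 Mb on the left (-0.76, from -0.83 to -0.68) and at 113.72 Mb on the right, 1.52 against 0.68 (1.15, from 1.05 to 1.22). The ends of C at 113.56 and 113.67 Mb thus faced each other, and so did those at 113.72 Mb and at 114.49 to 114.51 Mb, the latter with 1.58 on the left and 0.54 on the right (-1.55). Contact at 113.92 to 113.94 Mb leaned to the right by 0.46 and at 114.05 Mb by 0.24, while at 114.33 Mb it leaned to the left (-0.88). The sign was the same in 8 of 8 libraries at each of these. The ends were chosen for high contact, some of the means hold the maximum that named the end, and several ends lie beside an insulation minimum. The favoured side was thus partly set by the choice of the ends, and these values are a description. At 113.16, 114.49, 114.60 and 114.77 Mb the flank ended less than 400 kb away on 1 side, so fewer bins entered there.

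Contacts in the right flank fell with distance to the power of about -0.90. The slope of log2 mean KR on log2 distance from 50 kb to 1 Mb was -0.89 for ∆BorC1, -0.90 for ∆BorC1-2, -0.89 for ∆BorC1-4, -0.96 for ∆CTCF, -0.90 for BorKnockIn, -0.91 for InvC, -0.86 for InvIntra and -0.87 for InvC∆Bor. The median was -0.90 with an SD of 0.03 (n = 8 libraries). ∆CTCF had the steepest decay and InvIntra the shallowest. KR at 20 kb was 46.6 times that at 1000 kb in ∆CTCF and 30.8 times in InvIntra, with the other 6 between 36.1 and 41.4. The slope changed along the way, from a median of -0.90 between 20 and 100 kb to -0.81 between 100 and 400 kb, -1.12 between 400 and 1000 kb and -1.49 between 1000 and 1500 kb.

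**Figure D4:**
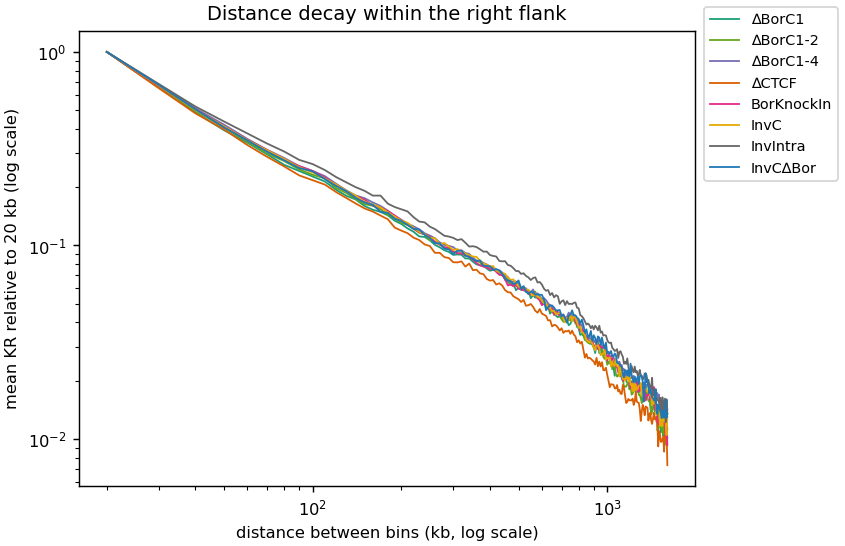
Mean KR at each distance relative to that at 20 kb (log scale) against the distance between bins (kb, log scale) in the right flank, 1 line per library. At 1000 kb ∆CTCF lies lowest and InvIntra highest; at 1500 kb, where the lines are noisier, ∆BorC1-4 lies above InvIntra (KR at 20 kb 59.1 and 64.8 times that at 1500 kb).

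Of the flank's contacts, 23.0% (20.8 to 24.7% over libraries) joined bins 20 to 40 kb apart, 16.6% bins 400 to 790 kb apart (15.4 to 17.6%) and 6.93% bins 800 to 1830 kb apart (6.13 to 7.44%). Against the whole map's expectation the flank was richer in contacts up to 790 kb, with a median observed over expected of 1.13 at 50 to 90 kb, 1.12 at 100 to 190 kb and 1.07 at 400 to 790 kb. At 800 to 1830 kb it was 0.929 (0.830 to 0.946).

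The same decay was set against the left flank, the first 184 bins at the other end of the map (chr11:109010001-110850000), which was also outside the edits and was measured in the same libraries. The decay was shallower on the right in 8 of 8 libraries, with a mean slope of -0.898 against -1.08 and a difference of 0.18 ± 0.01 (SD, n = 8; exact two-sided sign-flip permutation p = 0.0078, 0.0078 after Benjamini-Hochberg adjustment over 3 measures, the smallest value 8 libraries can give). Between 100 and 500 kb alone the difference was smaller, 0.066. The direction was not the same at every distance. Between 100 and 400 kb the right flank had the steeper median slope, -0.81 (-0.87 to -0.78) against -0.77 (-0.81 to -0.74), and between 20 and 100 kb the medians were -0.90 and -0.93. Beyond 400 kb the left flank dropped to a median slope of -1.48 (400 to 1000 kb) and -2.86 (1000 to 1500 kb), against -1.12 and -1.49 on the right. Shorter contacts exceeded the whole map's expectation in the left flank too. Its median observed over expected was 1.05 at 50 to 90 kb and 1.07 at 100 to 190 kb. At 200 to 390 kb it was 1.06, against 1.07 on the right. At 400 to 790 kb the left flank had 0.814, and at 800 to 1830 kb 0.536. ∆CTCF was the steepest and InvIntra the shallowest library in the left flank too (-1.13 and -1.02), so the order of these libraries was not particular to the right flank.

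Whether the pattern on the right was stronger or weaker than on the left depended on the values used. The SD of log2 observed over expected among blocks of 50 kb was 0.710 on the right and 0.751 on the left, lower in 8 of 8 libraries with KR values (difference -0.040 ± 0.027, SD, n = 8; exact permutation p = 0.0078, adjusted 0.0078). In InvIntra the 2 flanks were nearly equal, at 0.6842 on both sides after rounding. With raw counts the difference was 0.032, higher on the right (adjusted exact permutation p = 0.0234). The SD of the insulation score along the flank behaved alike, 0.405 against 0.444 with KR values (-0.039 ± 0.015, SD, n = 8; exact permutation p = 0.0078, adjusted 0.0078) and a difference of 0.064 the other way with raw counts (adjusted exact permutation p = 0.0117). No direction is given for these 2 measures. The p-values here and for the decay cover how 8 libraries repeat a difference between the same 2 stretches, and do not extend to other stretches.

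The maps of the flank repeated closely between libraries. For blocks of 50 kb, 100 kb to 1 Mb apart, log2 KR over expected correlated between libraries at r = 0.980 to 0.991 with a median of 0.987, over 475 block pairs in each of 28 pairs of libraries. Distance is removed by the expectation, but block pairs share bins and coverage, so r is a description. The lowest value was that of ∆CTCF with InvIntra. The median over the other libraries was lowest in ∆CTCF (0.983) and highest in ∆BorC1-4, the deepest library, and ∆BorC1-2 (0.989 in both after rounding). In the shallowest library, InvC∆Bor, it was 0.985. By distance, the median r was 0.987 at 50 kb, 0.993 at 100 to 150 kb, 0.991 at 200 to 350 kb, 0.989 at 400 to 750 kb and 0.934 at 800 to 1500 kb, lowest in the longest class. At single 10 kb bins the corresponding values were 0.914, 0.909, 0.868, 0.809 and 0.418.

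The spread between libraries stayed small beside the pattern itself. The SD of raw log2 observed over expected over the 8 libraries was 0.05 at 50 kb, 0.06 at 100 to 150 kb, 0.07 at 200 to 350 kb, 0.08 at 400 to 750 kb and 0.11 at 800 to 1500 kb. Counting error alone gave 0.02, 0.03, 0.04, 0.07 and 0.09 in these classes, so the libraries differed by 2.60 times counting error at 50 kb and by 1.21 to 1.24 times beyond 400 kb. The SD over block pairs, the size of the pattern, was 0.36, 0.59, 0.73, 0.79 and 0.48.

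**Figure D5:**
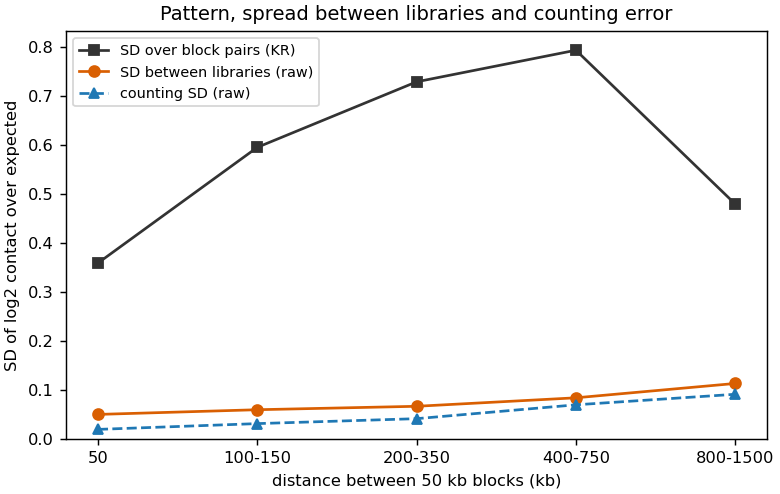
SD of log2 contact over expected against the distance between 50 kb blocks (kb), for the pattern over block pairs (squares, KR), the spread between the 8 libraries (circles, raw) and counting error (triangles, raw). The pattern peaks at 0.79 at 400 to 750 kb while the spread between libraries rises from 0.05 to 0.11.

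Single libraries seldom departed from the others. Of 5040 values (630 block pairs at least 50 kb apart in each of 8 libraries), 5 lay more than 1.5-fold from the median of the other 7, or 0.0992%. Over the whole map, edited interval included, the share past the same fold was 1.58% for ∆BorC1, 1.28% for ∆BorC1-2, 0.559% for ∆BorC1-4, 2.79% for ∆CTCF, 10.0% for BorKnockIn, 12.2% for InvC, 11.5% for InvIntra and 2.92% for InvC∆Bor. In the left flank it was 8 of 5040, or 0.159%. On the right, ∆BorC1-2 had 1 of the 5, ∆CTCF and InvC 2 each, and the remaining libraries, BorKnockIn and InvIntra among them, none. The median absolute departure of a library was 0.06 to 0.11 on the log2 scale.

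All 5 departures joined the thinly covered block at 114.79 Mb with a block 1400 to 1750 kb away. They were lower in ∆BorC1-2 (-0.70, with 113.24 Mb, 50 contacts) and ∆CTCF (-0.59 with 113.04 Mb and -0.76 with 113.14 Mb, 35 and 30 contacts), and higher in InvC (0.62 with 113.04 Mb and 0.64 with 113.39 Mb, 65 and 71 contacts). None had 100 contacts. Counts are scaled by each library's own expectation before they are compared. Where either the library or the median of the rest reached 100 contacts, the lowest departure was 113.24 with 114.74 Mb in InvC∆Bor (-0.58 with a counting SD of 0.20, on 51 contacts against a median of 117), followed by 113.34 with 114.44 Mb in ∆CTCF (-0.57, SD 0.12, on 141 against 238). The highest was 113.44 with 114.64 Mb in InvC∆Bor (0.56, SD 0.15, on 98 against 125), followed by 113.24 with 114.79 Mb in InvIntra (0.54, SD 0.14, on 101 against 50). In ∆BorC1-4 the extremes were 0.46 and -0.28, and in ∆BorC1 they were 0.19 and -0.45. The part of low coverage in these departures was not tested.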

How the data were processed

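Capture Hi-C libraries of 8 genotypes were used, each with a raw and a balanced map in bins of 10 kb (16 maps). Raw values are read pair counts per pair of bins, as deposited by the authors. KR values are a balanced signal that the authors deposited beside them. Per the submitters' processing notes, Bowtie2 2.2.6 and Juicer were used with mm9; filters on reads are not stated there. Missing KR values (4 for ∆BorC1, 7 for ∆BorC1-4, 1 for ∆CTCF) were left out.

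Each library's expectation was its mean at each distance over the whole map. Raw counts served for shares, departures and counting error (exact Clopper-Pearson 95% intervals; read pairs without molecular identifiers are not independent), KR for the rest. Insulation minima needed a prominence of 0.1 and a match within 20 kb. Named positions are the minima, the intervals between them, the 10 highest local maxima and each library's highest and lowest block pair against the other 7. Flanks were compared by an exact two-sided sign-flip permutation test.

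The members, positions and measures were chosen with earlier results of these data known. The ends of maxima, crossing shares, sides, slopes by distance and the setting without the last 10 bins were added after the data were seen. Some of the measures were tried on simulated data. No outcome of those trials is given here, so they lend no weight to the weak minima, the maxima or the departures. Tool versions were scipy 1.17.1, numpy 2.4.6, matplotlib 3.10.9, pandas 2.3.3 and Python 3.11.15. Alternatives were raw and thinned counts, other windows, prominences, distances, folds and expectations, BorKnockIn as deposited and leaving out each library.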

Additional observations from a re-analysis of the deposited data

How the results depend on the processing

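The 6 minima of the 100 kb window and the 4 of the 200 kb window stayed within 1 bin when any 1 library was left out (8 of 8 sets each). With a 400 kb window there were 2, at 113.55 and 113.69 Mb. A prominence of 0.2 left 4 minima of the 100 kb window and 0.05 gave 7, adding 114.06 Mb; raw counts moved 113.71 to 113.69 Mb and thinned counts to 113.68 Mb. Of 140 alternative scores at minima 22 moved beyond 1 SD over libraries, and the score at 113.93 Mb in the 200 kb window (-0.15) became 0.11 with raw and 0.11 with thinned counts. All 22 came from raw counts, thinned counts or observed over expected, and every raw and thinned score moved or changed sign. The other settings could hardly move a score: a prominence threshold leaves it as it is, and the rest drop 1 library or shift BorKnockIn. The decay slope of -0.90 became -0.83 from 20 to 500 kb and -1.07 from 100 kb to 1.5 Mb. The right minus left differences in SD turned from -0.040 to 0.032 (observed over expected) and from -0.039 to 0.064 (insulation) with raw counts. The contrast of 1.37 was 1.30 with raw and 1.30 with thinned counts, 1.34 with the flank's own expectation, 1.33 for pairs 20 to 500 kb apart, 1.64 with the 200 kb layout and 1.36 without the last 10 bins, a setting chosen after seeing the data. Median r of 0.987 was 0.983 with thinned counts and 0.804 for 10 kb bins. The 5 departures became 0 at 2-fold, 0 with at least 100 contacts, 9 with KR values and 15 with thinned counts. The causes of these changes were not tested. Raw values were lower than KR values at 9 of the 10 maxima, 4.92 against 6.88 for the first and 2.62 against 4.05 for the third in rank, which came sixth among the 10 with raw counts; at 113.05 and 113.49 Mb the raw value was higher (3.61 against 3.54). At single 10 kb bins 800 to 1500 kb apart the median r was 0.418, and the part of depth in this was not tested.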
